A study of Mus musculus with 11 samples.

Results

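Phf6 and 8 genes for proteins listed as its partners were followed in bulk RNA-seq of mouse bone marrow progenitors. The partners were Phip, Ubtf, the PAF1 complex genes Paf1, Ctr9, Leo1 and Cdc73, and the histone chaperone genes Rbbp4 and Rbbp7. The 9 genes were taken by symbol from a deposited table of 55291 symbols, and they were chosen with earlier results of these data known. All 9 were among the 17183 genes that passed the filter on low counts. The cells were LSK cells, which lack lineage markers and carry cKit and Sca-1, a compartment that holds the blood stem cells and early progenitors. The 11 libraries came from mice of the genotype written Phf6R274X Tg (Tg, n = 4), Phf6 knock out mice (KO, n = 3) and wild type mice (WT, n = 4), and C57BL/6 is the strain given for all. The sources used here do not give how the Tg animals were made, whether they keep an intact Phf6 allele, which exons the knockout lacks, or the age and sex of the animals.

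PHF6 is a nuclear protein with a pair of extended PHD zinc finger domains, and its gene lies on the X chromosome. Truncating and missense mutations of the human gene occur in T-cell and myeloid leukaemias and in an inherited syndrome of intellectual disability. The partner proteins belong to several machines: UBF (gene Ubtf) activates ribosomal RNA genes for RNA polymerase I, the PAF1 complex travels with RNA polymerase II, PHIP is a bromodomain protein that reads chromatin, and RBBP4 and RBBP7 carry histones in several chromatin complexes.

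The allele name R274X places a stop at codon 274 of Phf6. In the GENCODE M21 annotation (GRCm38, the assembly of mm10), this codon lies in exon 8 of the 11 exons of the principal transcript, and the sources used here do not give the base change in these mice. A stop there leaves 273 of 364 codons (75.0%) and takes away 91, with 273 bases between the codon and the last exon junction. The counts are per gene, so reads of an R274X transcript and of an intact Phf6 transcript were added together and cannot be told apart.

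The libraries held 28943998 to 41301982 counts in Tg, 30418368 to 45632018 in KO and 20990446 to 31130936 in WT, and a count of 0 allowed up to 3 counts, or 0.0657 to 0.143 CPM, a gene's counts relative to the size of its library. All 10 LSK marker genes, among them Kit and Ly6a (which encodes Sca-1), had counts in every group. Their summed levels were 2544 to 2980 CPM in Tg, 2552 to 2761 CPM in KO and 2349 to 3322 CPM in WT. The sums hide single genes: by the edgeR test described below, Procr was higher in Tg against KO (log2 fold change 1.02, adjusted p = 0.0413). In that contrast 2.63% of all genes were called higher, and 0 of the 10 were called in the other contrasts. Xist, the RNA of the inactive X chromosome, stood at 0.0307 to 0.324 CPM in Tg, 32.6 to 41.1 CPM in KO and 48.8 to 54.2 CPM in WT. The summed level of 4 Y-linked genes was 54.3 to 368 CPM in Tg, 0.0335 to 114 CPM in KO and 0.0634 to 134 CPM in WT. Both Xist and Y-linked genes exceeded 5 CPM in KO replicate 1 and in WT replicates 1, 2 and 4, although the labels describe RNA of individual mice. The Tg genotype and the near absence of Xist coincide, so that a difference between Tg and the other groups cannot be told apart from a difference in the X chromosomes, on which Phf6 and Rbbp7 lie.

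Phf6 (X:52912266-52956943, plus strand) was the gene of the 9 that differed most between genotypes. It stood at 183, 183, 237 and 278 CPM in the 4 Tg libraries, at 24.0, 18.8 and 15.4 CPM in the 3 KO libraries and at 142, 117, 116 and 109.9 CPM in the 4 WT libraries. Every Tg library lay above every WT library and every KO library below all others, so that the 3 groups did not overlap. Levels without overlap were seen for 4.5% of all genes with Tg above WT, for 9.8% with Tg above KO and for 3.71% with KO below WT. The means were 220.1 ± 46.1 CPM in Tg (SD, n = 4), 19.4 ± 4.33 CPM in KO (SD, n = 3) and 121 ± 14.2 CPM in WT (SD, n = 4). The KO libraries still held 1096, 627 and 458 Phf6 counts, far above the limit of 3 counts. Which exons these counts came from cannot be read from a table of counts per gene.

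**Figure D1:**
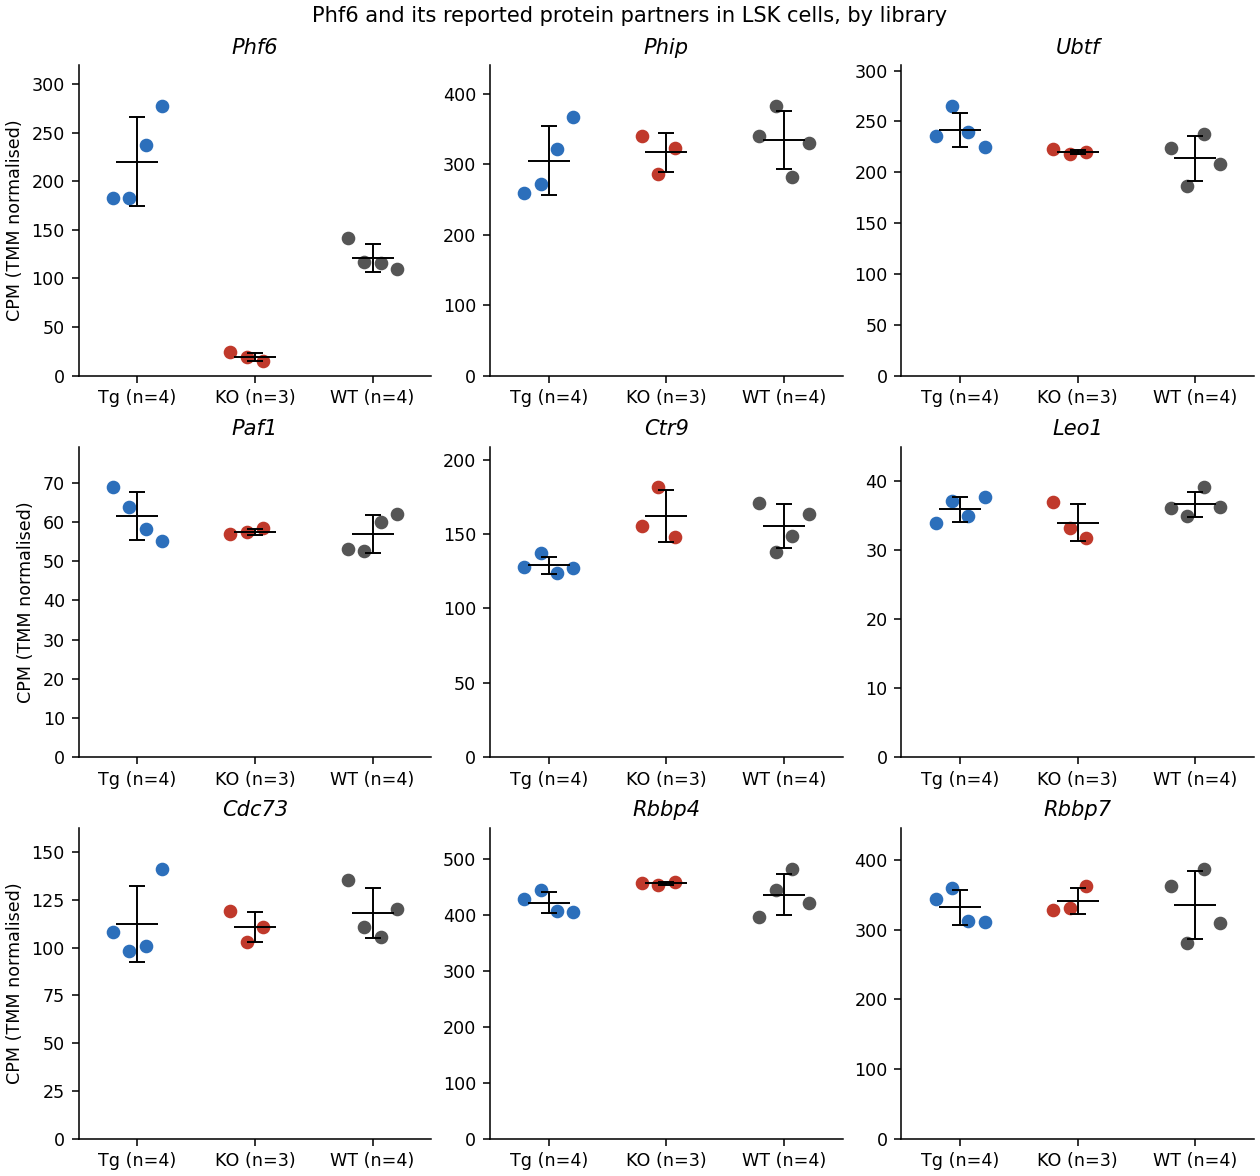
Level of each of the 9 genes in CPM (linear axis from 0, scaled by TMM factors) in every Tg, KO and WT library, with the mean (horizontal bar) and SD (error bar) of each group. The Phf6 panel separates the groups, with Tg libraries from 183 to 278 CPM, KO libraries from 15.4 to 24.0 CPM and WT libraries from 109.9 to 142 CPM, and in the Ctr9 panel the 4 Tg libraries sit below all others.

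Fold changes were estimated with edgeR's quasi-likelihood test over all 11 libraries, with p-values adjusted over the 17183 genes by the Benjamini-Hochberg method and a gene called at an adjusted p under 0.05. In KO against WT, Phf6 fell by 2.64 on the log2 scale (SE 0.19, 95% interval from -3.07 to -2.22, edgeR adjusted p = 0.000352), which leaves 16.0% of the WT level. It ranked 1 by p-value, in a contrast that called 0.0233% of all genes, 0.0175% as lower. Phf6 in Tg against WT rose by 0.86 (SE 0.16, 95% interval from 0.50 to 1.22, edgeR adjusted p = 0.0176), or 182% of the WT level, in a contrast that called 4.92% of all genes, 2.54% as higher. Against KO, Tg was 3.50 higher (SE 0.20, edgeR adjusted p = 6.28e-06), in a contrast that called 5.69% of all genes, 2.63% as higher. These contrasts share libraries and are not independent of each other. The rise in Tg against WT kept its size without WT replicate 2 (0.85) but lost its call (edgeR adjusted p = 0.0563), and without the 4 libraries that held both Xist and Y-linked reads it was 0.94 with an adjusted p of 0.31 and only 1 WT library left. With the Y-linked level as a covariate it was 0.69 (edgeR adjusted p = 0.0269).

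The neighbouring gene Hprt, a purine salvage enzyme gene used as a housekeeping gene, begins 31.2 kb after the end of Phf6. It averaged 149 ± 13.1 CPM in Tg, 154 ± 16.7 CPM in KO and 146 ± 14.8 CPM in WT (SD, n = 4, 3 and 4), and its groups overlapped. Gpc3, a cell-surface proteoglycan gene that ends 298.3 kb before Phf6, averaged 11.6 ± 2.12 CPM in Tg, 4.36 ± 1.38 CPM in KO and 5.74 ± 2.09 CPM in WT. The lowest Tg library (8.573 CPM) lay just above the highest WT library (8.565 CPM) and above the highest KO library (5.946 CPM). Levels without overlap in that direction were seen for 4.5% of all genes against WT and for 9.8% against KO. The other neighbours on either side, Ccdc160 and Plac1, were below 0.1 CPM in all libraries.

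Among the 10893 genes that averaged 5 CPM or more, the genes with levels most like those of Phf6 over the 11 libraries included Ttc21b (Pearson r = 0.950), Fgfr1 (r = 0.949), Lama5 (r = 0.945) and Trim62 (r = 0.935), and the most opposite were Dhx58 (r = -0.930) and Xaf1 (r = -0.927). These are the extremes of a ranking over all such genes, the points share libraries and groups, and no test was made. Lama5, a laminin chain of the basement membrane, averaged 9.72 ± 2.56 CPM in Tg, 2.14 ± 0.19 CPM in KO and 5.08 ± 1.06 CPM in WT. Ttc21b, a gene of transport within cilia, averaged 30.0 ± 0.90 CPM in Tg, 22.1 ± 0.26 CPM in KO and 29.6 ± 0.96 CPM in WT, so that it was the KO libraries that stood apart. Dhx58, a sensor of viral RNA of the RIG-I family, ran the other way, with 19.97 ± 1.27 CPM in Tg, 39.4 ± 5.47 CPM in KO and 21.8 ± 3.49 CPM in WT.

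None of the 8 partner genes was called by edgeR's quasi-likelihood test in any contrast. KO against WT gave 0 calls of 8, also by DESeq2 and limma-voom, where edgeR called 0.0233% and DESeq2 0.6% of the genes tested. Of 17183 genes, 573 higher and 645 lower had an unadjusted p under 0.05, and none of the 8 partner genes did. Their log2 fold changes in KO against WT ran from -0.11 for Leo1 to 0.07 for Rbbp4, and every 95% interval lay between -0.38 (Cdc73) and 0.27 (Rbbp7). These bounds hold at 16.0% of the WT level of Phf6, and changes within them were not detectable with 3 KO and 4 WT libraries. Their median absolute log2 fold change was 0.06, against 0.15 over all genes tested.

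Tg against WT gave 0 calls of 8 by edgeR, which called 4.92% of all genes, and 0 by limma-voom. DESeq2 called 1 (Ctr9), in a contrast where it called 11.1% of the genes it tested. In the edgeR fit Ctr9 also had the only unadjusted p under 0.05 of the 8. The log2 fold changes ran from -0.27 for Ctr9 to 0.18 for Ubtf, with a median absolute value of 0.09 against 0.20 over all genes. The counts of the 8 in Tg against KO were the same, where edgeR called 5.69% of all genes and DESeq2 11.2%. The ends of the range there were Ctr9 at -0.33 and Ubtf at 0.13. The signs of the smallest changes depend on the settings, and the closing section gives them.

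**Figure D2:**
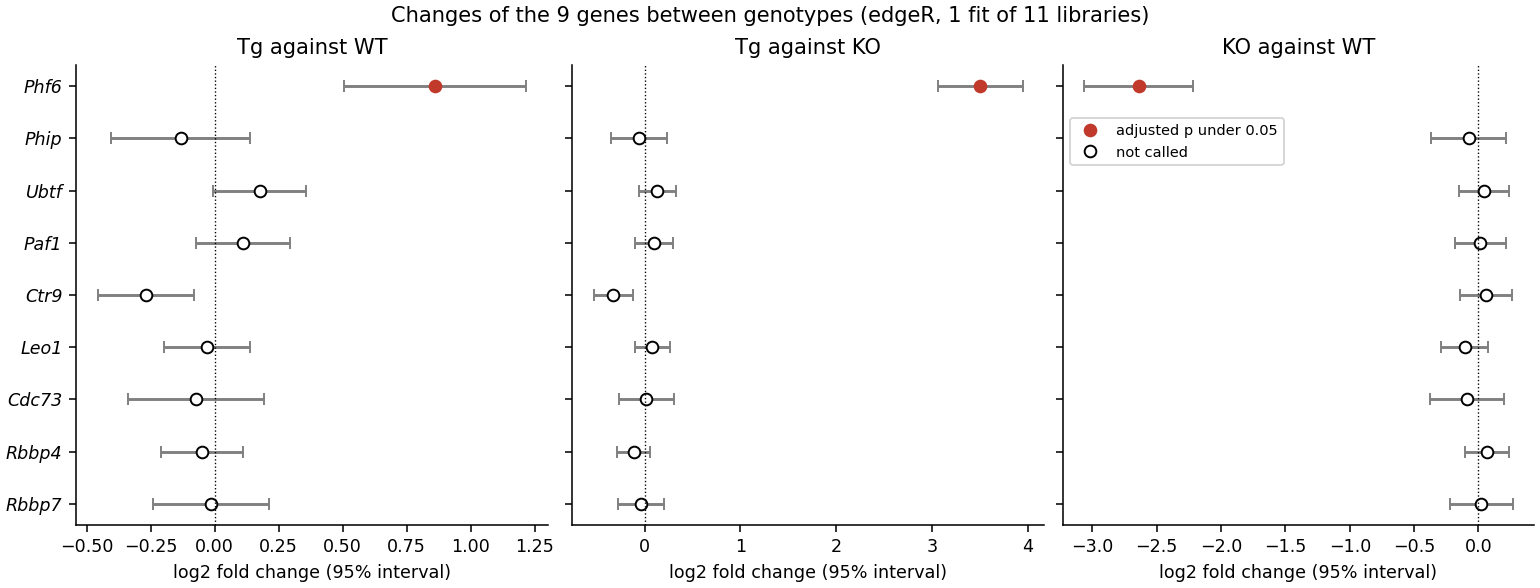
Log2 fold change of each gene in the 3 contrasts (points, with 95% intervals as bars), from 1 edgeR fit of 11 libraries, with filled points for an adjusted p under 0.05 and a different horizontal scale in each panel. Phf6 is filled in every panel (0.86, 3.50 and -2.64), and each of the 8 partners is open in every panel.

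Phip (9:82866159-82975516, minus strand) encodes a bromodomain and WD40-repeat protein that serves CUL4 ubiquitin ligases as a substrate receptor. It ranged from 259 to 366 CPM in Tg (median 297), from 286 to 341 CPM in KO (median 323) and from 282 to 383 CPM in WT (median 335), and the groups overlapped. The log2 fold change was -0.13 in Tg against WT (95% interval from -0.40 to 0.14) and -0.08 in KO against WT (from -0.37 to 0.22). The list of Phip relatives and the CUL4 ligase held 6 genes (Brwd1, Brwd3, Cul4a, Cul4b, Ddb1 and Rbx1). Calls by edgeR, DESeq2 and limma-voom were 0 in each contrast, where edgeR called 0.0233% to 5.69% of all genes. No unadjusted p of the 6 was under 0.05. The lowest p of them belonged to Cul4b in Tg against WT (log2 fold change -0.16) and to Brwd1, the closest relative of Phip in this list together with Brwd3, in KO against WT (-0.14).

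Ubtf (11:102304560-102319742, minus strand) encodes UBF, the HMG-box protein that keeps ribosomal DNA open for RNA polymerase I. It stood at 236, 266, 239 and 225 CPM in Tg, at 222, 218 and 220.1 CPM in KO and at 224, 186, 237 and 208 CPM in WT. All 4 Tg libraries were above all 3 KO libraries, which lay within a few CPM of each other, while Tg and WT overlapped. A difference without overlap in that direction between Tg and KO was seen for 9.8% of all genes. Ubtf was 0.18 higher in Tg against WT on the log2 scale (SE 0.08, 95% interval from -0.00 to 0.36, edgeR adjusted p = 0.238) and 0.13 higher in Tg against KO (SE 0.09, adjusted p = 0.439), neither of which passed the test. The difference from WT was between 0.12 and 0.22 when any 1 library was left out, and 0.03 (adjusted p = 0.956) without the 4 libraries that held both Xist and Y-linked reads. In KO against WT it was 0.04 (95% interval from -0.15 to 0.24).

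UBF works with the products of 16 listed genes in RNA polymerase I transcription. Of these 16, edgeR, DESeq2 and limma-voom called 0 in each contrast, where edgeR called 0.0233% to 5.69% of all genes. Only Polr1e, a polymerase I subunit, had an unadjusted p under 0.05 in Tg, with 29.3 ± 2.75 CPM in Tg (n = 4), 24.95 ± 1.63 CPM in KO (n = 3) and 25.2 ± 2.20 CPM in WT (n = 4). Its log2 fold change was 0.22 in Tg against WT (edgeR adjusted p = 0.221). Polr1a, the largest subunit, was at 178 ± 22.9 CPM in Tg, 177 ± 7.75 CPM in KO and 152 ± 18.9 CPM in WT, with log2 fold changes of 0.23 in Tg against WT (edgeR adjusted p = 0.241) and 0.22 in KO against WT (adjusted p = 0.741). The median log2 fold change of the 16 was 0.00 in Tg against WT, 0.01 in Tg against KO and -0.01 in KO against WT, beside 0.01, 0.01 and -0.01 over all genes.

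Ctr9 (7:111028951-111056377, plus strand), the scaffold subunit of the PAF1 complex, was the partner with the largest difference between genotypes. It stood at 128, 137, 124 and 127 CPM in Tg, at 156, 182 and 148 CPM in KO and at 171, 138, 149 and 164 CPM in WT. The 4 Tg libraries lay below every KO and every WT library, although the highest Tg library (137 CPM) and WT replicate 2 (138 CPM) nearly met. A difference without overlap in that direction was seen for 5.34% of all genes in Tg against WT and for 11% in Tg against KO. The means were 129 ± 5.74 CPM in Tg (SD, n = 4), 162 ± 17.5 CPM in KO (SD, n = 3) and 155 ± 14.7 CPM in WT (SD, n = 4). The log2 fold change in Tg against WT was -0.27 (SE 0.09, 95% interval from -0.46 to -0.08, edgeR adjusted p = 0.0997), or 83.1% of the WT level, which missed the threshold. That in Tg against KO was -0.33 (SE 0.09, edgeR adjusted p = 0.0636). DESeq2 called both differences (adjusted p = 0.0411 and 0.0173) in contrasts where it called 11.1% and 11.2% of the genes it tested. Over the 21 alternatives the difference from WT ran from -0.32 to -0.20, with adjusted p-values between 0.0411 and 0.646, and in KO against WT Ctr9 differed by 0.06 (95% interval from -0.14 to 0.26).

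Other values also differed between the groups. The summed level of 20 G2 and M phase genes was 3185 to 3591 CPM in Tg, 3831 to 4257 CPM in KO and 3881 to 4163 CPM in WT, so that Tg lay below both other groups, and 5 of the 20 fell in Tg against WT by edgeR's test (2.39% of all genes were called lower). The summed level of 10 granulocyte-monocyte progenitor markers was 4988 to 24529 CPM in Tg, 3945 to 5096 CPM in KO and 1462 to 3671 CPM in WT, with none of the 10 at 0 in any group and 8 of the 10 called higher in Tg against WT (2.54% of all genes). The Tg and KO ranges of this sum overlapped, and the KO sums were above all WT sums. Of the 10 markers, 0 were called in KO against WT by edgeR (0.0233% of all genes). Mpo alone averaged 3283 CPM in KO and 1871 CPM in WT. In Tg against WT 10 of 10 B and plasma cell markers were lower (1 called), as were 10 of 10 erythroid markers (2 called). So were 8 of 9 macrophage (4 called) and 7 of 9 T and NK cell markers (3 called), beside 8458 of all 17183 genes. Another T and NK cell marker was called higher. Higher were 7 of 10 mature neutrophil markers (1 called) and 6 of 8 megakaryocyte markers (0 called). The part of all these values in the levels of Ctr9 was not tested. In RNA of a mixed population, fewer cells of a type and less RNA per cell cannot be told apart, and this holds for every level given here.

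No other PAF1 complex gene was called in any contrast by edgeR, DESeq2 or limma-voom, and none had an unadjusted p under 0.05. In these contrasts edgeR called 0.0233% to 5.69% of all genes. Paf1 (7:28392951-28399388, plus strand), the subunit that names the complex, stood at 69.0, 63.8, 58.2 and 55.3 CPM in Tg, at 56.9, 57.4 and 58.4 CPM in KO and at 53.2, 52.7, 60.0 and 62.2 CPM in WT, with overlap between all groups. Its log2 fold change in Tg against WT was 0.11 (95% interval from -0.07 to 0.30). Leo1 (9:75441524-75466432, plus strand), which binds PAF1 directly, ranged from 33.9 to 37.7 CPM in Tg, from 31.8 to 36.9 CPM in KO and from 34.9 to 39.1 CPM in WT. Cdc73 (1:143598800-143702893, minus strand), the gene of the tumour suppressor parafibromin, ranged from 98.0 to 141 CPM in Tg, from 103 to 119 CPM in KO and from 105 to 135 CPM in WT. Of the 2 remaining subunit genes, Rtf1 was at 115 ± 8.43 CPM in Tg, 112 ± 7.74 CPM in KO and 112 ± 8.54 CPM in WT, and Wdr61 was at 67.4 ± 7.45 CPM in Tg, 58.2 ± 4.58 CPM in KO and 60.7 ± 6.47 CPM in WT. The log2 fold change of Wdr61 was 0.15 in Tg against WT (edgeR adjusted p = 0.419) and 0.21 in Tg against KO (adjusted p = 0.295).

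The subunits of the complex can be set side by side within each library, per length. The log2 ratio of Paf1 over Ctr9, both in CPM per kb of exons, was 0.33, 0.12, 0.13 and 0.02 in Tg, -0.23, -0.44 and -0.12 in KO and -0.46, -0.17, -0.09 and -0.18 in WT. Paf1 was thus above Ctr9 in all 4 Tg libraries and below it in the 7 other libraries. The log2 ratio of Leo1 over Ctr9 averaged -1.12 ± 0.07 in Tg (SD, n = 4), -1.53 ± 0.19 in KO (SD, n = 3) and -1.36 ± 0.15 in WT (SD, n = 4). Its Tg range, -1.19 to -1.03, lay just above the WT range, -1.52 to -1.20. The third ratio to Ctr9, that of Cdc73, overlapped between the groups, with -1.62 to -0.98 in Tg, -1.96 to -1.53 in KO and -1.63 to -1.46 in WT. Leo1 over Paf1 overlapped as well, with -1.52 to -1.05 in Tg, -1.37 to -1.12 in KO and -1.27 to -1.05 in WT. Another choice of gene lengths would move all libraries of a ratio by the same amount, so that the place of 0 depends on it and the order of the libraries does not. The ratios restate the levels above and were given no test.

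**Figure D3:**
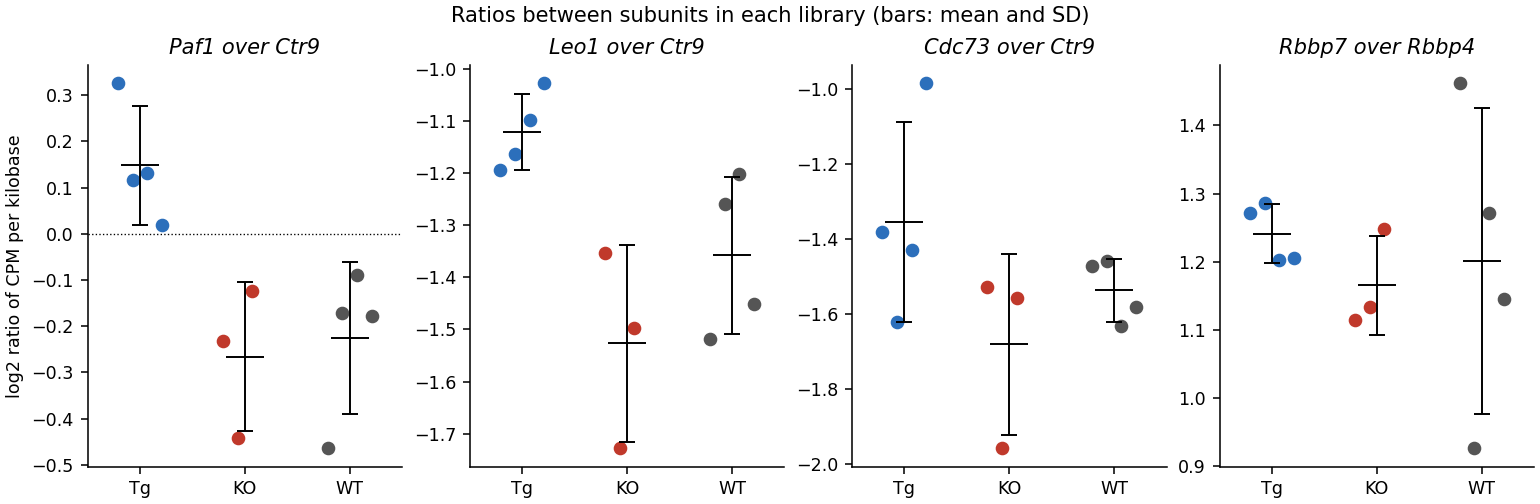
Log2 ratio of CPM per kb between subunit genes in every Tg, KO and WT library (points), with the mean and SD of each group (bars) and a different vertical scale in each panel. Paf1 over Ctr9 is positive in the 4 Tg libraries (0.02 to 0.33) and negative in the KO (-0.44 to -0.12) and WT libraries (-0.46 to -0.09), and Rbbp7 over Rbbp4 overlaps between the groups.

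Another 18 genes act next to the PAF1 complex in elongation and in the ubiquitination of histone H2B. Of these 18, edgeR, DESeq2 and limma-voom called 0 in each contrast, where edgeR called 0.0233% to 5.69% of all genes. Only Ube2b, the RAD6-type ubiquitin-conjugating enzyme, had an unadjusted p under 0.05 in Tg against WT, with 63.7 ± 7.67 CPM in Tg and 73.1 ± 5.15 CPM in WT (log2 fold change -0.20, edgeR adjusted p = 0.218). The same held in Tg against KO for Supt4a only, a subunit of the elongation factor DSIF, with 31.9 ± 3.24 CPM in Tg and 39.0 ± 2.22 CPM in KO (-0.29, adjusted p = 0.117). Rnf20, the ubiquitin ligase for H2B, was at 100.6 ± 4.55 CPM in Tg, 102.5 ± 1.26 CPM in KO and 109 ± 5.53 CPM in WT. In KO against WT 0 of the 18 had an unadjusted p under 0.05, and their log2 fold changes ran from -0.12 to 0.18.

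Rbbp4 (4:129307100-129335370, minus strand) and Rbbp7 (X:162760402-162779092, plus strand) encode closely related WD40-repeat proteins that hold histones H3 and H4, and their reads could be shared if the genes were near copies. Their coding sequences, 1278 bases each, were 77.8% identical, and the longest run in common was 20 bases. The 60 bases around that run are shown because they hold the longest stretch that could be shared, with the 13 bases at which they differ in capitals. The Rbbp4 bases lie at 4:129322777-129322836 on the minus strand and the Rbbp7 bases at X:162769797-162769856 on the plus strand (GRCm38).
Rbbp4: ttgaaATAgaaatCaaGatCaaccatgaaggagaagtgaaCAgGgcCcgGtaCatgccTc
Rbbp7: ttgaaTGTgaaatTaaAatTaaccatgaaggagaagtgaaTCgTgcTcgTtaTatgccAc
A read of more than 20 coding bases therefore holds at least 1 base at which the genes differ. Among the annotated transcripts of GENCODE M21, copies with at least 90% identity over at least 150 bases took 12 counts for Rbbp4 (2 copies). For Rbbp7 they took 62 counts (1 copy), both over all libraries. None was found for the other 7 genes, and copies outside the annotation were not searched for. Rbbp7 overlaps Txlng on the opposite strand by 174 exon bases. Cdc73 overlaps B3galt2 in that way by 679 bases, and Rbbp4 overlaps Sync by 782 and Gm26722 by 796. Over all libraries Txlng had 13072 counts, B3galt2 102 and Sync 2, and Gm26722 was not in the deposited table. Whether the counting used strand is not stated in the sources used here, so some reads of these stretches could belong to either gene.

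Rbbp4 stood at 429, 445, 408 and 405 CPM in Tg, at 456, 454 and 458 CPM in KO and at 396, 445, 483 and 420.4 CPM in WT. All 4 Tg libraries were below the 3 KO libraries, whose coefficient of variation was 0.51%, while Tg overlapped WT. Without overlap, 11% of all genes were lower in Tg than in KO. The log2 fold change was -0.11 in Tg against KO (SE 0.08, edgeR adjusted p = 0.455), and 0.07 in KO against WT (95% interval from -0.11 to 0.24). Rbbp7 ranged from 311 to 361 CPM in Tg, from 329 to 362 CPM in KO and from 281 to 388 CPM in WT, and its 95% interval ran from -0.24 to 0.21 in Tg against WT and from -0.22 to 0.27 in KO against WT. Per kb of exons, Rbbp7 was 2.36 ± 0.07 times Rbbp4 in Tg (SD, n = 4). It was 2.25 ± 0.11 times in KO (SD, n = 3) and 2.32 ± 0.36 times in WT (SD, n = 4). With the length of the principal transcript alone, a choice made after seeing the data, Rbbp7 averaged 148 and Rbbp4 95.7 CPM per kb in Tg. They averaged 152 and 103.5 in KO and 149 and 98.9 in WT, so the size of the ratio depends on the lengths.

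The spread within WT was not the same for all genes. WT replicate 2 had the highest Phip (383 CPM) and the lowest Ubtf (186 CPM), Paf1 (52.7 CPM), Ctr9 (138 CPM), Leo1 (34.9 CPM) and Rbbp7 (281 CPM) of the 4 WT libraries. WT replicate 3 had the lowest Phip (282 CPM) and the highest Ubtf (237 CPM), Leo1 (39.1 CPM), Rbbp4 (483 CPM) and Rbbp7 (388 CPM). The coefficient of variation of Ubtf was 7.08% in Tg, 0.93% in KO and 10.3% in WT, and that of Paf1 was 9.84% in Tg, 1.33% in KO and 8.42% in WT. These spreads rest on 3 or 4 libraries each and were not compared by a test.

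Per kb of exons, the order of the 9 genes in WT was Rbbp7 (115 ± 16.7 CPM per kb), Rbbp4 (49.9 ± 4.23), Ubtf (32.6 ± 3.35), Ctr9 (19.4 ± 1.84), Phf6 (17.4 ± 2.04), Paf1 (16.6 ± 1.40), Phip (10.02 ± 1.24), Leo1 (7.56 ± 0.37) and Cdc73 (6.70 ± 0.75, SD, n = 4 each). The WT ranges of Ctr9, Phf6 and Paf1 overlapped, as did those of Leo1 and Cdc73, so their places within the order were not set apart by the spread. Phf6 was 4th in Tg with 31.7 ± 6.64 CPM per kb, next to Ubtf (36.9 ± 2.61), and 9th in KO with 2.79 ± 0.62 CPM per kb. With the length of the principal transcript alone, a choice made after seeing the data, Phf6 stayed 4th in Tg and 9th in KO and was 7th in WT (27.9 ± 3.26 CPM per kb), next to Paf1 (28.5 ± 2.40) and Phip (31.0 ± 3.84).

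**Figure D4:**
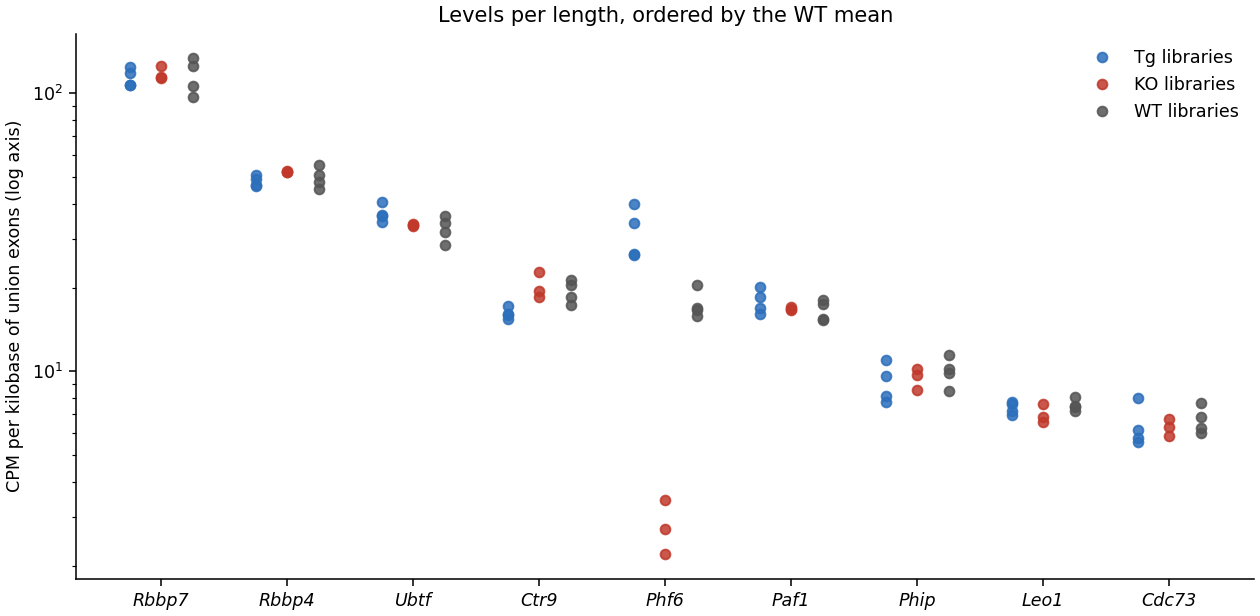
Level per kb of union exons (log axis) of the 9 genes in every Tg, KO and WT library, with the genes ordered by their WT mean. Phf6 lies above Ctr9 and Paf1 in Tg (26.3 to 39.98 CPM per kb), below all partners in KO (2.21 to 3.45) and in the middle of the order in WT (15.8 to 20.4), and the partners shift far less between the groups.

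RBBP4 and RBBP7 are shared by several chromatin complexes, and the other genes of those complexes were read as lists. The lists held 38 genes of NuRD, PRC2, CAF-1 with other H3-H4 chaperones, SIN3, NURF and MuvB. KO against WT gave 0 calls by edgeR's quasi-likelihood test (0.0233% of all genes), by DESeq2 and by limma-voom. It gave 2 unadjusted p-values under 0.05 (Lin37, higher, and Arid4b, lower), beside 573 higher and 645 lower of all 17183 genes. By edgeR, Tg against WT gave 2 calls, both lower (2.39% of all genes were called lower). Tg against KO gave 4, all lower (3.06% of all genes). In the same contrasts DESeq2 called 3 and 4, all lower, where it called 11.1% and 11.2% of the genes it tested. By limma-voom there were 2 and 4 calls, all lower. All of them stood in the PRC2 or NuRD list. The edgeR calls were 5.26% of the 38 genes in Tg against WT and 10.5% in Tg against KO. Of the 80 genes in all 10 lists of related genes they were 2.5% and 5%, beside 4.92% and 5.69% of all genes.

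Ezh2, the PRC2 methyltransferase of histone H3 lysine 27, stood at 130.1, 135, 159 and 141 CPM in Tg, at 203, 195 and 209 CPM in KO and at 198, 235, 196 and 185 CPM in WT. Every Tg library was below every other library, as for 5.34% of all genes against WT and 11% against KO. Ezh2 fell by 0.53 on the log2 scale in Tg against WT (SE 0.09, edgeR adjusted p = 0.0127) and by 0.52 in Tg against KO (SE 0.09, adjusted p = 0.012), while it differed by -0.01 in KO against WT (adjusted p = 0.993). Without KO replicate 3 the adjusted p in Tg against KO was 0.0554, and without the 4 libraries that held both Xist and Y-linked reads it was 0.31 in Tg against WT and 0.0568 in Tg against KO. The other 3 PRC2 genes were not called, with Suz12 at -0.16, Eed at -0.13 and Ezh1 at -0.12 in Tg against WT.

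Of 12 NuRD genes, Mta3, a subunit found in some forms of the complex, fell by 0.47 on the log2 scale in Tg against WT (SE 0.09, edgeR adjusted p = 0.0171), with 60.9 ± 4.48 CPM in Tg (n = 4) and 84.1 ± 7.41 CPM in WT (n = 4), and its adjusted p was 0.0564 without Tg replicate 1 and 0.419 without the 4 libraries that held both Xist and Y-linked reads. The genes called in Tg against KO were Mta3 (-0.38, edgeR adjusted p = 0.0402), the deacetylase Hdac1 (-0.43, adjusted p = 0.0379) and the methyl-DNA binding Mbd2 (-0.30, adjusted p = 0.0356). Hdac1 was at 88.0 ± 3.39 CPM in Tg and 118 ± 9.31 CPM in KO, and Mbd2 at 67.4 ± 4.09 CPM in Tg and 83.0 ± 4.90 CPM in KO. Over the 21 alternatives Hdac1 was called in 11, Mta3 in 9 and Mbd2 in 9. When each of the 11 libraries was left out in turn, Mta3 kept its call 3 times, Hdac1 4 times and Mbd2 4 times. All 3 calls ended without any 1 of the KO libraries and without Tg replicate 1 or 2. The call of Hdac1 also ended without Tg replicate 3 or 4, that of Mta3 without Tg replicate 4 or WT replicate 2 or 4, and that of Mbd2 without Tg replicate 3 or WT replicate 4. Chd3, a remodelling subunit, differed as much in Tg against KO (-0.43) but varied more between libraries and was not called (adjusted p = 0.153). Chd4, the other remodelling subunit in the list, differed by -0.07 there (edgeR adjusted p = 0.628). The G2 and M phase values given for Ctr9 separate Tg from both other groups and the progenitor marker values separate it from WT, and their part in these falls was not tested.

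**Figure D5:**
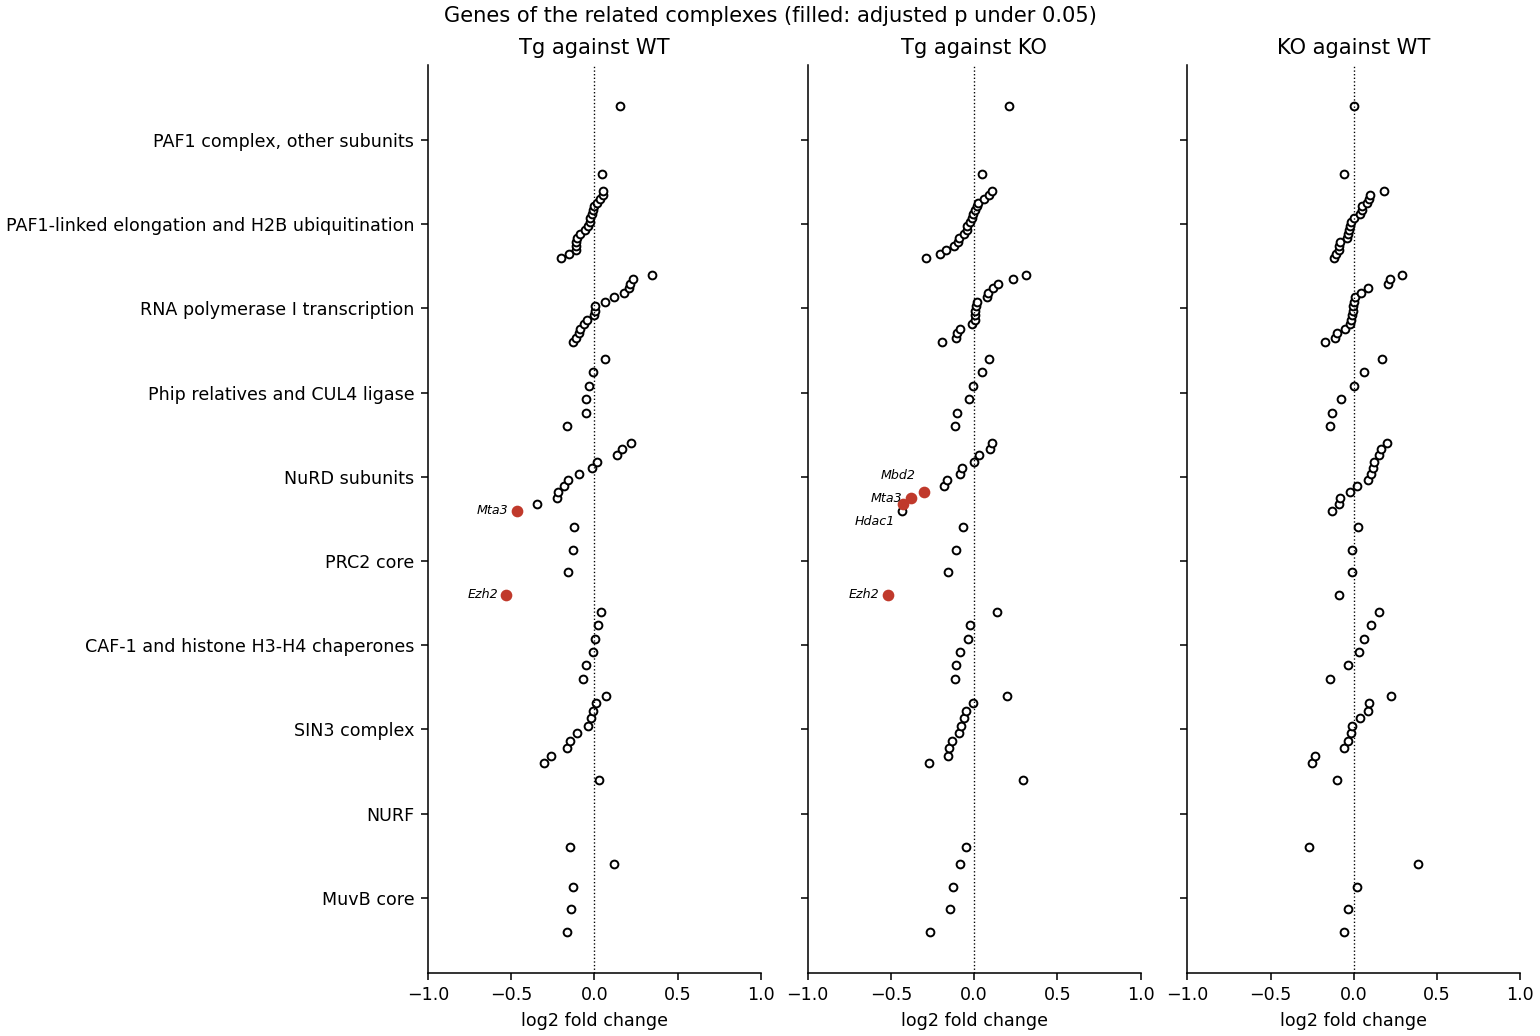
Log2 fold change of each gene (points) of the 10 lists of related genes in the 3 contrasts, with filled and named points for an edgeR adjusted p under 0.05. Filled points are Ezh2 and Mta3 in Tg against WT (-0.53 and -0.47) and Ezh2, Hdac1, Mta3 and Mbd2 in Tg against KO (-0.52, -0.43, -0.38 and -0.30), and KO against WT has none.

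In the remaining lists nothing was called by edgeR, DESeq2 or limma-voom in any contrast. They were the 6 CAF-1 and chaperone genes (-0.07 to 0.04 in Tg against WT), 10 SIN3 genes (-0.31 to 0.07), 2 NURF genes (-0.15 to 0.03) and 4 MuvB genes (-0.16 to 0.12). Hdac1 and Hdac2 were read in the NuRD list only, not with the SIN3 genes. In the SIN3 list 4 genes had an unadjusted p under 0.05 in Tg against WT, all lower, as 1914 of all 17183 genes were. The 4 were Arid4a (-0.31, edgeR adjusted p = 0.102), Arid4b (-0.26, adjusted p = 0.165), Ing1 (-0.17, adjusted p = 0.188) and Sin3a (-0.15, adjusted p = 0.205). Arid4a and Arid4b encode DNA-binding subunits of the complex and Sin3a its scaffold.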

How the data were processed

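Total RNA of LSK cells sorted from single mice was sequenced with paired reads (Illumina NextSeq 500), per the labels' protocols. FastQC, Trimmomatic, STAR, HTSeq and the build mm10 are named in the submitters' processing notes, with no versions, and the sources used here do not give the annotation, strand setting or filters. The authors deposited raw counts per gene symbol, with no normalization. Limits from counts hold for counting error alone, as there were no molecular identifiers.

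Genes were filtered with filterByExpr, scaled by TMM and tested with edgeR 4.0.16 (quasi-likelihood test, R 4.3.3) in 1 fit of 17183 genes and 11 libraries with no covariate, and p-values were adjusted by the Benjamini-Hochberg method. The steps were tested on simulated data. The SE is the log2 fold change over the square root of F. DESeq2 1.42.0 and limma 3.58.1 were alternatives, beside other scalings, filters, covariates and left-out libraries, 21 in all. CPM values are TMM scaled. Coordinates and lengths came from GENCODE M21 (GRCm38), and near copies from BLAST 2.17.0. The members and lists were chosen with earlier results of these data known. Beside all 9 members, called genes of a list and up to 4 with the lowest p were named, with the 5 genes most like Phf6 and the 2 most opposite, of which 1 is not reported here. No 2 libraries of the same group agreed within sampling noise. P-values rest on the spread between these libraries. Of them, 4 held both Xist and Y-linked reads although the labels describe single mice.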

Additional observations from a re-analysis of the deposited data

How the results depend on the processing

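Phf6 kept its direction under all 21 alternatives in each contrast and its call in KO against WT and Tg against KO. In Tg against WT it lost its call with a replicate block (0.86, edgeR adjusted p = 0.0525), without the 4 libraries that held Xist together with Y-linked reads (0.94, adjusted p = 0.31) and without WT replicate 2, with 0.73 to 0.94 over the left-out libraries; the cause was not tested. Same-numbered libraries showed no likeness across groups: 0 of 10 same-numbered correlations of deviations exceeded 0.1, and 1 of 11 libraries correlated best with its own number. With 3 or 4 libraries per group, these correlations cannot exclude a pairing.

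Genes called in KO against WT numbered 4, but 99 by DESeq2, 1 by limma-voom, 1 with only the 2 groups, 1 with the replicate block, 2 with the Y-linked covariate and 1 to 4 with a library left out. In Tg against WT they numbered 846, but 1912 by DESeq2, 358 with only the 2 groups, 221 with the block, 1342 with the covariate, 20 without the 4 libraries and 211 to 1076 with 1 left out. In Tg against KO they numbered 978, but 1922 by DESeq2, 303 with the block, 465 with the covariate, 364 without the 4 libraries and 287 to 1096 with 1 left out. The block also ended the calls of Ezh2 in Tg against KO (-0.50, adjusted p = 0.0609), Mta3 in Tg against WT (-0.47, adjusted p = 0.0588), and Hdac1 (-0.41, adjusted p = 0.138), Mta3 (-0.36, adjusted p = 0.139) and Mbd2 (-0.32, adjusted p = 0.126) in Tg against KO. Of the 9 genes, 1 was called in each contrast, but 2 by DESeq2 in Tg against WT and in Tg against KO, and in Tg against WT 0 with the block, 0 without the 4 libraries and 0 to 1 with 1 left out.

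Of 504 partner values under alternatives, from -0.38 to 0.23, 2 were called (Ctr9, DESeq2). Values near 0 changed sign. In KO against WT these were Paf1 (-0.018) and Rbbp7 (-0.0097) with upper-quartile scaling, Rbbp7 (-0.0058) with the replicate block, Phip (0.011), Paf1 (-0.019) and Rbbp7 (-0.033) with the covariate, and Phip (0.12), Ubtf (-0.098), Paf1 (-0.036), Cdc73 (0.034), Rbbp4 (-0.067) and Rbbp7 (-0.15) without the 4 libraries. In Tg against WT they were Rbbp4 (0.0040) and Rbbp7 (0.078) with the covariate and Phip (0.12) and Cdc73 (0.097) without the 4 libraries. In Tg against KO they were Cdc73 with the block (-0.059) and covariate (-0.14) and Rbbp7 with the covariate (0.11). With 1 library left out, KO against WT ran from -0.017 to 0.090 for Ubtf, -0.026 to 0.058 for Paf1, -0.030 to 0.11 for Ctr9 and -0.053 to 0.093 for Rbbp7, Tg against WT from -0.090 to 0.056 for Rbbp7, and Tg against KO from -0.15 to 0.016 for Phip, -0.11 to 0.077 for Cdc73 and -0.079 to 0.011 for Rbbp7. The fewest counts of any of the 9 genes in a library were 458, against the limit of 3 counts that a 0 allows.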
